A study of Mus musculus with 16 samples.

Results

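The genes described here encode the factors that start and extend protein chains on the ribosome. They were taken by symbol, as RefSeq protein-coding genes of GRCm38 on chromosomes 1 to 19 whose symbols start with Eif1 to Eif6, Eef1 or Eef2, which gave 68 of 20665 genes. By symbol, 52 of these were set as factors or their subunits, and 16 as kinases, binding proteins or methyltransferases that act on them. The study mapped H3K27ac, a histone acetylation typical of promoters and enhancers in use, and H3K4me3, a histone methylation typical of promoters. Mouse embryos were taken 36 h after fertilization, at the late 2-cell stage, and profiled by a native chromatin immunoprecipitation protocol for very small samples (ULI-NChIP-seq), in which uncrosslinked chromatin is cut by micrococcal nuclease and fragments bound by an antibody are sequenced. Control embryos had received H2O as zygotes, and mutant embryos had received Hdac1 mutant mRNA, Hdac1 being a histone deacetylase. The labels give no mutation, strain, dose or number of embryos per library, both blastomeres of the embryo are in each sample, and an injected mRNA leaves the embryo's own Hdac1 gene in place.

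The 16 libraries form 8 groups of 2 (immunoprecipitated and input, for each mark and condition). The data used were 4 deposited peak lists, 1 for each immunoprecipitated group, with the position of each peak and no height or score. With 1 list a group there is no spread between replicates, so every difference below is one between lists, with no test, and the sequencing depth is unknown. On chromosomes 1 to 19 the H3K27ac lists held 73320 peaks (control) and 114737 peaks (mutant) over 241.8 and 237.2 Mb, and the H3K4me3 lists 83220 and 83290 peaks over 246.7 and 272.9 Mb. The 12 genes set as 2-cell markers, among them Zscan4c and Zfp352, all had H3K27ac at a gene end in both lists, and 10 had H3K4me3 in each. Of 10 genes of differentiated tissues, such as Alb and Gfap, 2 had H3K27ac in the control list and 5 in the mutant list, and 4 had H3K4me3 in each. Over all coding genes H3K27ac was at 56.3% (control) and 59.3% (mutant), and H3K4me3 at 76.4% and 75.1%. The part of other cells in the members' values was not tested.

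Translation starts when eIF2, loaded with GTP and initiator tRNA, joins the small ribosomal subunit with eIF1, eIF1A, eIF3 and eIF5, and eIF4F (the cap-binding eIF4E, the scaffold eIF4G and the helicase eIF4A) brings the mRNA. eIF2B recharges eIF2 with GTP, and kinases of eIF2 block that step under stress. eEF1 then delivers aminoacyl-tRNAs and eEF2 moves the ribosome along the mRNA. In the mouse the late 2-cell stage falls in the main wave of transcription from the embryo's own genome, and the factors made from it replace those laid down in the oocyte.

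A gene was counted as marked when a peak overlapped by at least 1 bp the windows of 2 kb on each side of either gene end. The sequences at the start sites of 10 genes are shown because H3K27ac was called anywhere in their windows in 1 condition only, and those of 4 genes with H3K27ac in their windows in both conditions are shown for contrast. Each stretch runs 5′ to 3′ on the strand of the gene, from 100 bases before the RefSeq start (GRCm38.p6) to 30 bases from it on. Capitals mark matches, on either strand, to any of 7 motifs. They are the letters GGGCGG for the GC box, CCAAT for the box of that name and CCGGAAG for the core of ETS factors. The others are CACGTG for the E-box, AAGATGG for the core of YY1, TGACGTCA for the cAMP response element and TATAAA for the TATA element. The stretches of the 7 genes with H3K27ac at their ends in the control list only lie at chr11:69921929-69922058 on the minus strand (Eif5a), chr3:28781177-28781306 on the plus strand (Eif5a2), chr5:31193110-31193239 on the minus strand (Eif2b4), chr15:77970795-77970924 on the minus strand (Eif3d), chr7:108934315-108934444 on the plus strand (Eif3f), chr9:20898561-20898690 on the minus strand (Eif3g) and chr2:181156986-181157115 on the minus strand (Eef1a2). At Eef1a2 the start itself lay under H3K27ac in neither list.
Eif5a: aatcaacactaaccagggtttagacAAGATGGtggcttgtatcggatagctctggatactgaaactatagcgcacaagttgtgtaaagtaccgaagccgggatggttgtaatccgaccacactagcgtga
Eif5a2: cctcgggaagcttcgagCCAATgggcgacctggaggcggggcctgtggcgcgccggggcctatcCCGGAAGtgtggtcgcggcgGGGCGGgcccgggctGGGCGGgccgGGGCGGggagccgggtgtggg
Eif2b4: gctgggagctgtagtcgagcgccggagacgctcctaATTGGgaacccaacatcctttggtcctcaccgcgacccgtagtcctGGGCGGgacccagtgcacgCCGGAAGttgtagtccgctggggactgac
Eif3d: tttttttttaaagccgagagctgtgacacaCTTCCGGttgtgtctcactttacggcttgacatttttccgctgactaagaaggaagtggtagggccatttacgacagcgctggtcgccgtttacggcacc
Eif3f: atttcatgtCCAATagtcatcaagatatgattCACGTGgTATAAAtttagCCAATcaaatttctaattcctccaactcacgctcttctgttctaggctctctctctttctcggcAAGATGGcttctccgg
Eif3g: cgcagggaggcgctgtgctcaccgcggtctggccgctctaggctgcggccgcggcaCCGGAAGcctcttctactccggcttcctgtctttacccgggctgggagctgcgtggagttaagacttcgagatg
Eef1a2: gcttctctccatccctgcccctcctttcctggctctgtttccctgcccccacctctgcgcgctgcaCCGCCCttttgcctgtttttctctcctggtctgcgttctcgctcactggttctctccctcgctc

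For Eif2ak2 and Eif3m, H3K27ac lay over the start in the mutant list only, and their stretches are chr17:78882543-78882672 on the minus strand and chr2:105016998-105017127 on the minus strand. Eif2ak3, at chr6:70844415-70844544 on the plus strand, had it in its windows in mutant only and over the start in neither list.
Eif2ak2: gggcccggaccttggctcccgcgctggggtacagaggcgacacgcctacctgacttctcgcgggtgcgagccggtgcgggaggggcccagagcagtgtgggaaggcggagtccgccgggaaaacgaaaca
Eif3m: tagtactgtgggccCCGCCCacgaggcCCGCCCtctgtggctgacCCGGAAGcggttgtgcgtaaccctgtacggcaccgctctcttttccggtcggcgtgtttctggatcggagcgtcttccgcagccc
Eif2ak3: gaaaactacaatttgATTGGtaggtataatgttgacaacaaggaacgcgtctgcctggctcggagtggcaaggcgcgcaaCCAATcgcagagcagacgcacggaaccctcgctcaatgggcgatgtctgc

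Eif4g1 and Eef2 had H3K27ac over the start in control and only elsewhere in their windows in mutant, whereas Eif3k and Eef1a1 had it over the start in both lists. Their stretches are chr16:20672627-20672756 on the plus strand (Eif4g1), chr10:81176531-81176660 on the plus strand (Eef2), chr7:28981859-28981988 on the minus strand (Eif3k) and chr9:78481695-78481824 on the minus strand (Eef1a1).
Eif4g1: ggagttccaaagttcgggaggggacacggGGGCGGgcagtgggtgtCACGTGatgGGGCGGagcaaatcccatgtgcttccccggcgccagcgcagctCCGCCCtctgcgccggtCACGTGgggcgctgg
Eef2: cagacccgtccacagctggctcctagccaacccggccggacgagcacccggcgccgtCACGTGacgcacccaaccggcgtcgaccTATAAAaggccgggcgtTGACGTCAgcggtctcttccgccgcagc
Eif3k: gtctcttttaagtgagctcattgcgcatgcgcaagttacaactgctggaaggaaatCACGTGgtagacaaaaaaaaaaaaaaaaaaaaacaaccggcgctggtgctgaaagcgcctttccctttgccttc
Eef1a1: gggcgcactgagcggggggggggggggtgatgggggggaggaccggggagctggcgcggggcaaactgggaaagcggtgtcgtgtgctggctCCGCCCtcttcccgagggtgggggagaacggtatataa

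These stretches had no motif in common. Among the 7 control-only genes, the ETS core stood in Eif5a2, Eif2b4, Eif3d and Eif3g and not in Eif5a, Eif3f and Eef1a2, and it also stood in the mutant-only Eif3m. The E-box was in Eif3f, Eif4g1, Eef2 and Eif3k, which differ in their H3K27ac. Over promoters of 300 bases, which RefSeq gave for 52 of the 68 genes and for 16457 coding genes in all, the E-box was found in 13 of the 52 (25%) against 7.97% of all promoters. The ETS core was found in 14 (26.9% against 12.3%) and the GC box in 37 (71.2% against 47.3%). The CCAAT box stood in 18 (34.6% against 39.1%), the YY1 core in 5 (9.62% against 6.4%), the TATA element in 4 (7.69% against 13.5%) and the cAMP response element in 1 (1.92% against 2.4%). None of these motifs contains another. Eef1akmt4 and Eef1akmt4-ece2 share a promoter with a GC box, a CCAAT box and an E-box, which is counted for each of them. A C followed by at least 4 pyrimidines, as in the tract of mRNAs controlled by mTOR, began within 5 bases of the listed start in 12 promoters (23.1% against 19.1%). The median GC content of the 52 promoters was 61.3%, against 56.7% for all, and their median ratio of observed to expected CpG was 0.815 against 0.597.

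In the control list H3K27ac was called at the ends of 63 of the 68 genes (92.6%), against 56.3% of all coding genes. In the mutant list it was called at 59 (86.8%), against 59.3%. H3K4me3 was at the ends of all 68 in the control list (76.4% of all genes) and of 67 in the mutant list (75.1%), so the members' share was above that of all genes in all 4 lists. Both marks were present at 63 genes in control (52.4% of all genes) and 59 in mutant (53.1%). H3K4me3 alone was at 5 genes in control (7.35%, against 24.0% of all genes) and 8 in mutant (11.8%, against 22%). No member lacked both marks at its ends in control (19.7% of all genes), and only Eef1a2 did in mutant (18.7%).

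H3K27ac was in the control list only at 7 genes: Eif2b4, Eif3d, Eif3f, Eif3g, Eif5a, Eif5a2 and Eef1a2. They are 11.1% of the 63 genes marked in control, against 22.6% of all genes marked in control and 20.0% of all genes with both marks in control. With windows of 1 kb 12 of 61 marked genes were control-only (19.7%, against 27.5% of all genes), and with windows around the start alone 13 of 46 (28.3%, against 33.1%). The 7 are factors or subunits, while the binding protein genes Eif4enif1 and Eif4ebp2 were also control-only with windows of 1 kb and around the start, respectively. Of the 5 genes without H3K27ac in control, 3 had it in the mutant list (60%, against 35.9% of all unmarked genes), namely Eif2ak2, Eif2ak3 and Eif3m. Eif4e3, an eIF4E homologue, and Eef1aknmt, a methyltransferase of eEF1A, had none at their ends in either list. The control-only share was below that over all genes with each of these windows, but not at every level of control coverage. It was 50% against 40.6% of all genes where up to 25% of the windows was covered, 0 of 20 genes against 20.3% from 25% to 50%, 20% against 12.8% from 50% to 75%, and 7.41% against 8.66% above that.

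The windows of the 68 genes held 320.5 kb of H3K27ac peaks in the control list and 203.3 kb in the mutant list, a ratio of 0.634, where the ratio over all coding genes was 0.863. That is 59.9% and then 38.0% of window bases, against 27% and 23.3% over all genes. Fewer bases were covered in the mutant list at 53 of the 66 genes marked in either list (80.3%, against 52.7% of all genes), more at 12, and the same number at 1 of the 66. Among the 63 genes with both marks in control, 53 had fewer (84.1%, against 66.8% of all such genes). The 2 sets were not matched, since H3K27ac covered 64.7% of these members' window bases in control and 49.1% over all such genes. The median covered length per gene was 4190 bp (control) and 2719 bp (mutant), and the median difference was -1376 bp. Windows lay wholly under H3K27ac at 14 genes in control (4.98% of all genes) and at 1, Eif3k, in mutant (1.77% of all genes). H3K4me3 covered 323.1 and 314.8 kb, a ratio of 0.974 against 1.04 for all genes, with fewer bases in the mutant list at 28 of 68 genes (41.2%, against 40.2%).

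**Figure D1:**
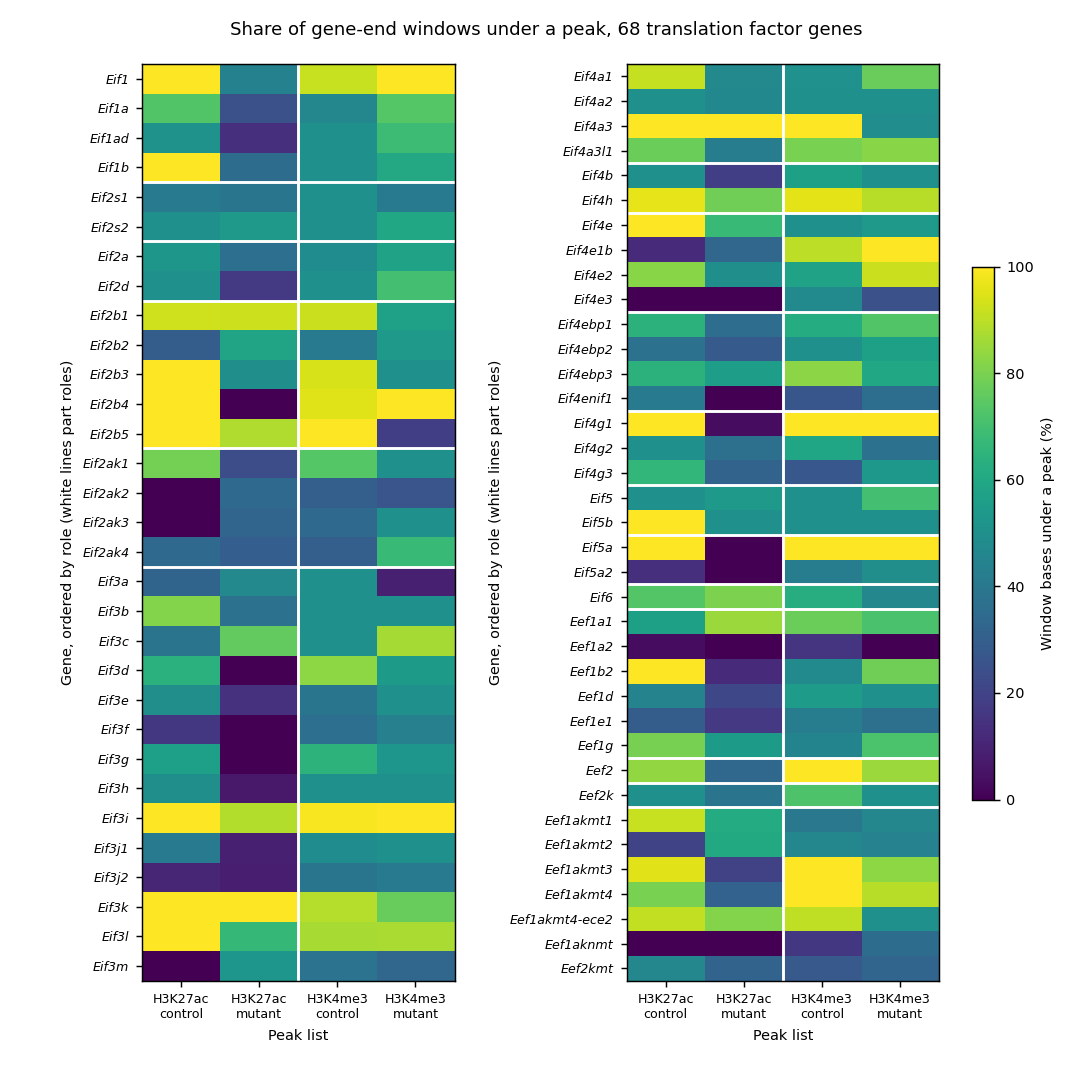
Percent of the gene-end window bases of each of the 68 genes (rows, ordered by role) that lay under a peak in each of the 4 lists (columns), from 0 (dark) to 100 (bright). The second column of each panel is darker than the first for 53 genes, and both eIF5A genes are at 0 in it, while the H3K4me3 columns differ less.

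The distance from all genes was smaller among genes with a like coverage in control. Where over 75% of the windows were covered in control, the ratio of H3K27ac bases was 0.541 for 27 members (197.1 to 106.6 kb) and 0.597 for the 2692 coding genes in that range. Between 50% and 75% it was 0.569 for 10 members and 0.678 for all, and between 25% and 50% it was 0.744 for 20 members and 0.768 for all. Below 25%, with 6 members, it was 1.36 against 1.61. In the 3 ranges above 25% the members' ratio was thus nearer to that of all genes than 0.634 is to 0.863. For the 63 members with both marks in control the ratio was 0.604, against 0.732 for the 10828 coding genes with both. These were not matched for H3K27ac coverage, which was 64.7% and 49.1% in control.

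H3K27ac peaks were also narrower. The widest H3K27ac peak at a marked gene had a median width of 13576 bp in control and 6309 bp in mutant (7669 and 4320 bp over all genes). At 43 of the 56 genes marked in both it was narrower in mutant (76.8%, against 66.8%). H3K27ac peaks over 10 kb reached 43 of the 68 genes in control (23.1% of all genes) and 9 in mutant (10.4%). The widest in control, 71138 bp, ran over Eif2b4, and the widest in mutant, 21752 bp, lay at Eif3k. H3K4me3 peaks over 10 kb reached 33 genes (19% of all) and 30 genes (25.1%), led by Eif5a in control with 72708 bp and Eif3c in mutant with 29919 bp. At 37 of 67 genes (55.2%, against 36.9%) the widest H3K4me3 peak was the narrower one in mutant, although the medians of its width were 9217 bp (control) and 9377 bp (mutant), next to 5286 and 7093 bp over all genes. The whole mutant H3K27ac list also held more and narrower peaks, with a median width of 1088 bp against 1205 bp in control, and the part of this in the members' values was not tested.

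In what follows, paired values are window bases under a peak in control and then in mutant. The genes of eIF2 and its exchange factor eIF2B differed among themselves. Eif2s1 and Eif2s2, the alpha and beta subunits of eIF2, held nearly the same H3K27ac in both lists (3268 and 3099 bp, then 4001 and 4297 bp). Over the 5 eIF2B subunit genes the ratio of H3K27ac bases was 0.683, and 4 of them had fewer in mutant. Eif2b4, the delta subunit, was covered over all 8002 bp of its windows in control and over 0 bp in mutant, where the nearest H3K27ac peak lay 7354 bp from the windows. Its H3K4me3 covered 7609 and 8002 bp. Eif2b5, the catalytic epsilon subunit, showed the reverse combination, with H3K27ac at 8002 and 7035 bp and H3K4me3 at 8002 and 1492 bp. Eif2b3, the gamma subunit, held 8002 and 3987 bp of H3K27ac and 7511 and 4001 bp of H3K4me3. Both were among the 5 genes with the largest differences toward less H3K4me3 (-6510 and -3510 bp), and the eIF2B group had the lowest H3K4me3 ratio of any role with more than 1 gene, 0.663. Eif2b2, the beta subunit, went the other way in H3K27ac, from 2369 to 4673 bp.

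The ratio of H3K27ac bases was 1.06 over the 4 kinases of eIF2, next to 1.02 over the 2 eIF2 subunit genes, and the kinases differed among themselves. Eif2ak2 (PKR, activated by double-stranded RNA) had 0 bp of H3K27ac in control and 2738 bp in mutant, and Eif2ak3 (PERK, of the endoplasmic reticulum) had 0 and 2616 bp. Both had H3K4me3 in both lists. Over the gene body of Eif2ak2, H3K27ac covered 6.27% in control and 4.38% in mutant. At Eif2ak3 the mutant peak was not at the start, which lay 6157 bp from the nearest one. A control peak lay 2617 bp outside its windows, so that with windows of 5 kb it was marked in both lists, and H3K27ac covered 23.8% of the gene body in control and 19.5% in mutant. Eif2ak4 (GCN2, activated by amino acid lack) held 2743 and 2378 bp of H3K27ac and had the largest difference toward more H3K4me3 (2424 to 5401 bp). Eif2ak1 (HRI, the haem-regulated kinase) had less of both, with H3K27ac at 6321 and 1879 bp and H3K4me3 at 5880 and 4001 bp. Across the 16 regulators H3K27ac was at 13 genes in control and 15 in mutant (81.2% and 93.8%), with a covered ratio of 0.708. Across the 52 factors and subunits it was at 50 and 44 (96.2% and 84.6%), with a ratio of 0.616. Over all genes the shares were 56.3% and 59.3%, and the ratio was 0.863.

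eIF3, the scaffold of initiation, has 14 genes here. Of these, 13 had H3K27ac in control (92.9%, against 56.3% of all genes) and 11 in mutant (78.6%, against 59.3%), over 59.03 and 40.34 kb (ratio 0.683). All 14 kept H3K4me3, while 8.14% of all genes marked in control had none in mutant. Eif3d, a subunit that can bind the mRNA cap, had 5097 and 0 bp of H3K27ac, with the nearest mutant peak 702 bp outside its windows. Eif3g, an RNA-binding subunit, had 4531 and 0 bp, and Eif3f, of the subunit core, had 1286 and 0 bp. The nearest mutant peak was 16325 bp from the windows of Eif3g and 16712 bp from those of Eif3f. All 3 had H3K4me3 in their windows in both lists, with 6641 and 4360 bp (Eif3d), 5162 and 4200 bp (Eif3g) and 2924 and 3493 bp (Eif3f). Eif3m, another core subunit, was the opposite case, with 0 and 4190 bp, the largest difference toward more H3K27ac of all 68 genes. Eif3c, which with Eif3a forms the backbone of the complex, had more of both marks in mutant (3085 and 6090 bp of H3K27ac, 4001 and 6917 bp of H3K4me3). Eif3a had more H3K27ac (2569 and 3758 bp) and less H3K4me3 (4001 and 706 bp). Eif3k held 8002 bp of H3K27ac in both lists. The remaining 7 subunit genes all had fewer H3K27ac bases in mutant, from Eif3j2 (693 and 543 bp) to Eif3b (6505 and 2983 bp) and Eif3h (3985 and 533 bp).

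The genes of eIF4F, which binds the cap and unwinds the leader, and of its partners had both marks in both conditions, except Eif4e3. Eif4g1, the main scaffold, had 8002 bp of H3K27ac in control and 262 bp in mutant, and 8002 bp of H3K4me3 in both. The 3 eIF4G genes together had a ratio of 0.334. Eif4e, the cap-binding protein, held 8002 and 5392 bp, and Eif4a1, the helicase, 7314 and 3775 bp. Eif4a3, the helicase of the exon junction complex, differed in the other mark, with 8002 and 7988 bp of H3K27ac and 8002 and 3936 bp of H3K4me3. Eif4e1b, an eIF4E homologue of oocytes, had more H3K27ac in mutant (973 and 2652 bp), as well as H3K4me3 over 7201 and 8002 bp. Eif4e2, a cap-binding homologue that represses translation, held 6576 and 3986 bp of H3K27ac and 4610 and 7367 bp of H3K4me3. At Eif4enif1, a transporter and partner of eIF4E, 3296 bp of H3K27ac stood against 11 bp. Both H3K27ac lists lacked a peak in the windows of Eif4e3, whose H3K4me3 was 3787 and 1978 bp. In mutant the nearest H3K27ac peak lay 684 bp from these windows, and 3.75% of the gene body was covered.

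All 4 genes of eIF1 and eIF1A proteins had fewer H3K27ac bases in mutant (ratio 0.357) and more H3K4me3 bases (ratio 1.29). Eif5, which triggers GTP hydrolysis on eIF2, had more bases of both marks in mutant, with 4001 and 4340 bp of H3K27ac and 4001 and 5603 bp of H3K4me3. Eif1, which keeps scanning ribosomes from wrong start codons, held 6151 and 2714 bp of H3K27ac and 5628 and 6151 bp of H3K4me3. Eif1a, which works beside it, held 5828 and 1977 bp of H3K27ac and 3712 and 5905 bp of H3K4me3. Eif5b, which joins the subunits, held 8002 and 4001 bp of H3K27ac and 4001 bp of H3K4me3 in each list. Eif6, which keeps the large subunit from joining early, was among the few with more H3K27ac in mutant (5867 and 6436 bp) and had less H3K4me3 (4982 and 3688 bp).

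Both eIF5A genes had H3K27ac in control only. Eif5a, whose product carries hypusine and helps ribosomes through difficult peptide stretches, was covered over all 8002 bp in control and 0 bp in mutant, with the nearest mutant peak 5615 bp from the windows. Its H3K4me3 covered 8002 bp in both lists. Eif5a2, its paralogue, had 1076 and 0 bp of H3K27ac, in a single narrow control peak, and 3349 and 3949 bp of H3K4me3.

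Among the elongation factors the central genes Eef1a1 and Eef2 differed. Eef1a1, which delivers aminoacyl-tRNA, had 4127 bp of H3K27ac in control and 6172 bp in mutant, with H3K4me3 at 5640 and 5167 bp. Eef2, the translocase, had 6688 and 2668 bp of H3K27ac and 8002 and 6786 bp of H3K4me3. Eef1b2, which recharges eEF1A with GTP, went from 7656 to 931 bp of H3K27ac, while its H3K4me3 was 3652 and 5989 bp. Eef1a2, Eef1d, Eef1e1 and Eef1g, the remaining 4 genes grouped with eEF1 by symbol, each had fewer H3K27ac bases in mutant. Eef1a2, the form of muscle and neurons, held only 268 bp of H3K27ac and 1227 bp of H3K4me3 in its windows in control and neither mark there in mutant. It was the only gene of the 68 with H3K4me3 at its ends in control and not in mutant (1.47%, against 8.14% of all genes marked in control). Between its ends the mark was present in both lists, over 16.2% of the gene body in control and 39.2% in mutant, and with windows of 5 kb it was marked in both. Eef2k, the kinase of eEF2, held 4001 and 3090 bp of H3K27ac. Of the methyltransferases, Eef1akmt3 held 7636 and 1563 bp and Eef1akmt2 held 1639 and 4858 bp, one of the 5 largest differences in each direction. The readthrough gene Eef1akmt4-ece2 shares its start with Eef1akmt4, so they are not independent, and its H3K4me3 was 7246 and 4001 bp.

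**Figure D2:**
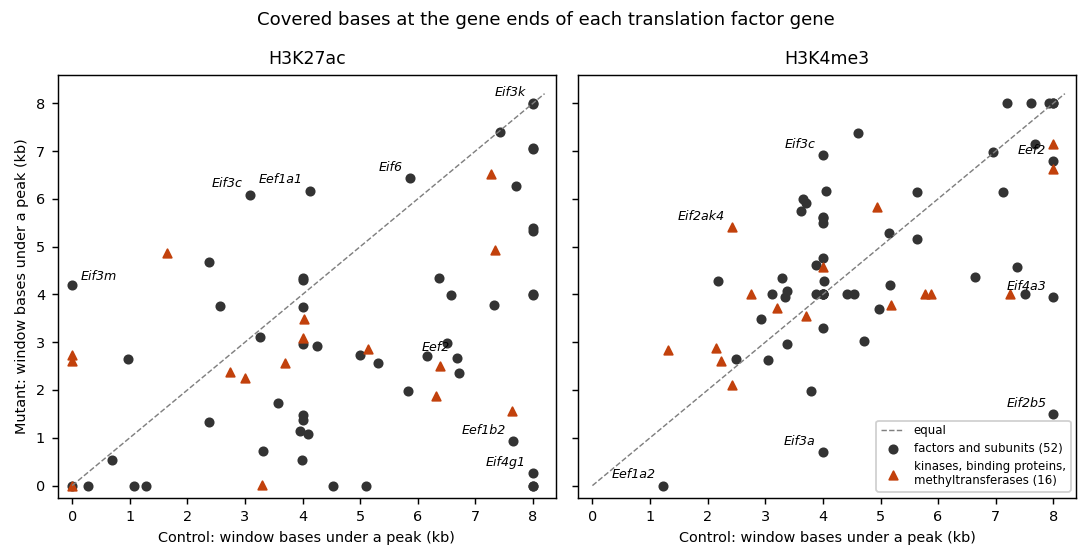
Window bases under a peak (kb) of each of the 68 genes in the mutant list (vertical) against the control list (horizontal), for H3K27ac (left) and H3K4me3 (right), with the 16 regulators as triangles and equality as a dashed line. Points with the same values lie on top of each other. For H3K27ac 53 genes lie under the line and 12 above, and for H3K4me3 28 lie under it and 34 above.

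Start sites could be told from the other gene end for the 52 genes with a RefSeq promoter. In control the start itself lay under H3K27ac at 44 of the 52 (84.6%), against 37.3% of all coding genes, and in mutant at 27 (51.9%), against 30.3%. It was there in control only at 20 genes, in mutant only at 3 (Eif2ak2, Eif3m and Eef2k), in both at 24 and in neither at 5. The 3 are 37.5% of the 8 genes without it there in control, against 17.3% of all such genes. The 20 are 45.5% of the 44, against 48.0% of all genes with H3K27ac at the start in control. All 20 had H3K4me3 over the start in both lists, and among the 42 members with H3K4me3 there in both and H3K27ac in control they are 47.6%, against 46.4% of all such genes. The control-only share of starts was therefore close to that over all genes.

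Besides genes without any H3K27ac at their ends in mutant, the 20 included Eif4g1, Eef2, Eef1b2, Eif5, Eif5b, Eif2a, Eif2d, Eif3b and Eif4b. At 14 of the 20 (70%) a mutant peak still reached the windows, close to the 66.0% of all genes with H3K27ac over the start in control only. The distance from the start to the nearest mutant H3K27ac peak ran from 121 bp (Eif2ak1) to 18712 bp (Eif3f), with a median of 3429 bp, and was under 500 bp at 2 genes and under 2000 bp at 8. The windows around the start held H3K27ac at 46 genes in control (88.5%) and 36 in mutant (69.2%), against 48.1% and 47.3% of all genes. The windows at the other gene end held it at 33 in each list (63.5%, against 37.9% and 38.6% of all genes). The promoters of the 24 genes with H3K27ac over the start in both lists had a median GC content of 60.3%, and those of the 20 control-only genes 61.7%. The E-box stood in 7 of the 24 and 4 of the 20, and the ETS core in 5 and 7. Among the 24 are both Eef1akmt4 and Eef1akmt4-ece2, which share a promoter with an E-box.

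H3K4me3 lay over the start of 51 of the 52 genes in control (69.0% of all genes) and of 46 in mutant (65.6%). The share of the 51 without it there in mutant, 9.80%, was close to the 10.5% of all genes with it in control. These 5 were Eif2b5, Eif3a, Eef1aknmt, Eef1a2 and Eef2k, of which Eif2b5 and Eif3a had H3K27ac over the start in both lists. At Eif2b5 the nearest mutant H3K4me3 peak was 530 bp from the start.

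**Figure D3:**
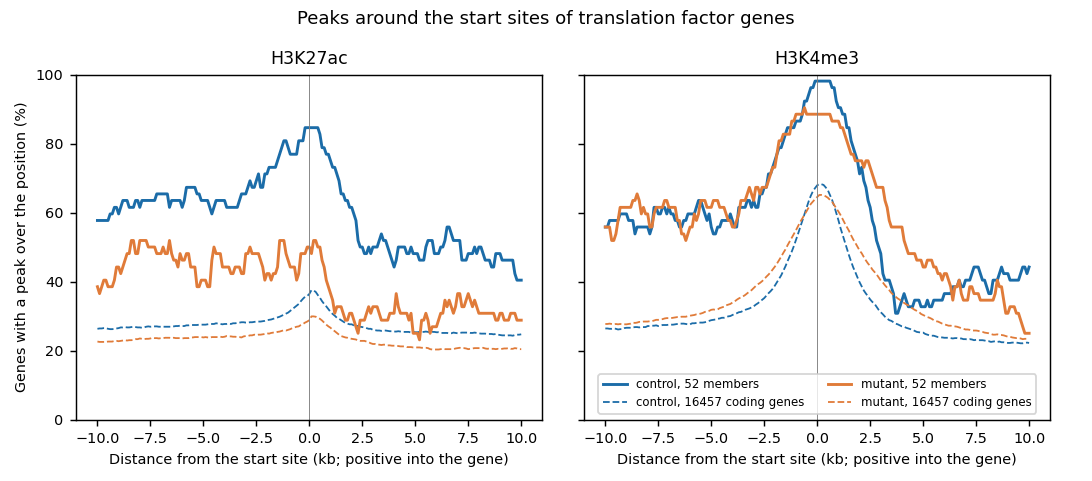
Percent of genes with a peak over each position within 10 kb of the start site (horizontal, positive into the gene), in control and mutant, for the 52 members (solid lines, 1 start per gene) and 16457 coding genes (dashed). At the start the members' H3K27ac is at 84.6% in control and 50% in mutant, and their H3K4me3 at 98.1% and 88.5%.

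The lower share of genes with H3K27ac extended beyond the start. Counting 1 start per gene, 63.5% of the members had H3K27ac 5 kb before the start in control and 40.4% in mutant, and 5 kb into the gene the shares were 48.1% and 25%. Over all coding genes they were 27.5% and 23.8% before the start, and 25.3% and 20.9% after it. For H3K4me3 the members' shares 5 kb before the start were 55.8% and 61.5%, and 5 kb into the gene 32.7% and 44.2%, while those of all genes were 28.8% and 31.8%, and 25.2% and 30.3%.

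**Figure D4:**
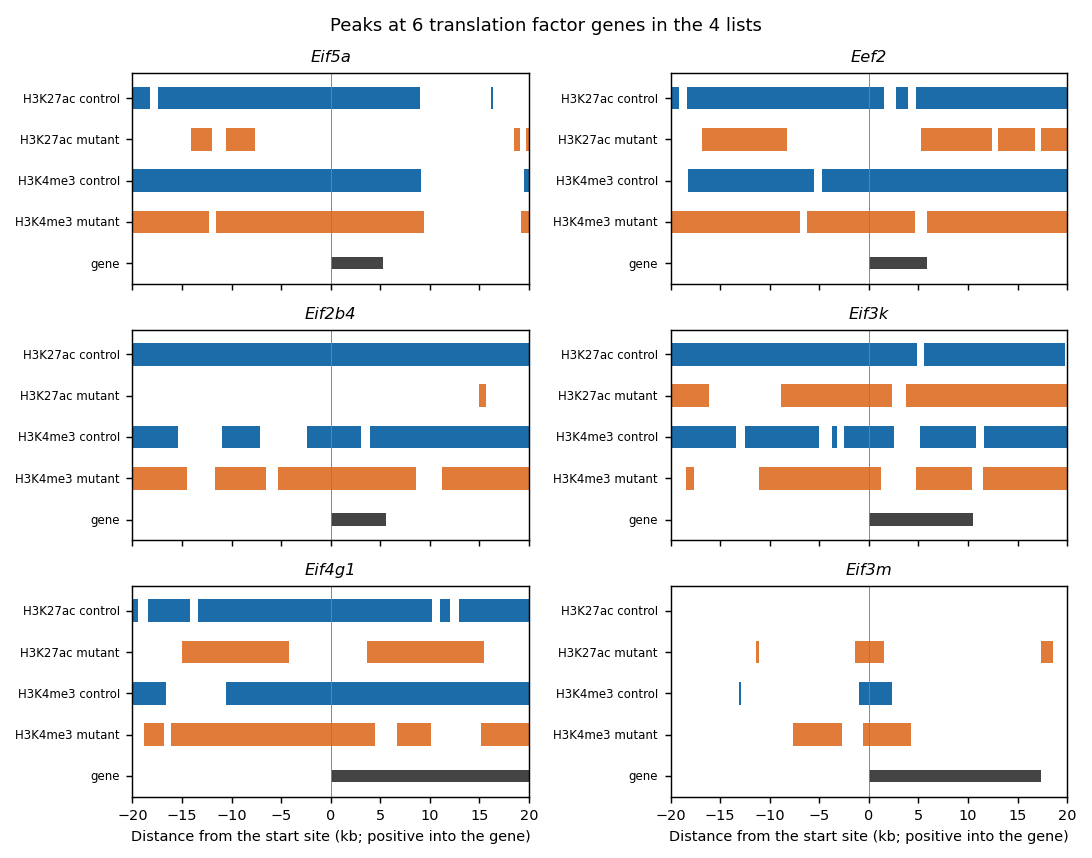
Peaks within 20 kb of the start site (horizontal axis in kb, positive into the gene) at Eif5a, Eif2b4, Eif4g1, Eef2, Eif3k and Eif3m, 1 row per list, with the gene below. H3K27ac of the mutant list is off the starts of Eif5a, Eif2b4, Eif4g1 and Eef2, where H3K4me3 is in both lists, and over the starts of Eif3k and Eif3m, at the latter with none in the control list.

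At Eif5a a control H3K27ac peak of 26509 bp ran from 17468 bp before the start to 9040 bp beyond it, and in mutant the nearest peak ended 7616 bp before the start. At Eif4g1 the control peak over the start was 23616 bp wide, and the mutant peaks on either side ended 4179 bp before the start and began 3688 bp into the gene. Eef2 had the same form, with a gap in mutant from 8280 bp before the start to 5211 bp after it. At Eif3k a mutant peak of 11103 bp still spanned the start. At Eif3m the mutant list had a peak of 3002 bp centred near the start, and the nearest control peak was 37998 bp away.

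Where both marks lay on the same bases was compared next. Of the H3K4me3 bases in the members' windows, 83.1% also lay under H3K27ac in control and 43.4% in mutant, against 52.9% and 39.9% over all genes. Over the 268.3 kb with H3K4me3 in both conditions the shares were 85.2% and 44.7%, against 55.4% and 43.6%. The share of H3K4me3 bases under H3K27ac was thus above that of all genes in control and within 4 percentage points of it in mutant. Such a share depends on how much of the windows H3K27ac covers. That coverage was 59.9% (control) and 38.0% (mutant) for the members, against 27% and 23.3% over all genes. Whether the marks overlapped more than this coverage alone would give was not tested. Of the control H3K27ac bases 48.7% were also called in mutant, close to 49.9% over all genes, and of the mutant bases 76.7% had been called in control, against 57.8%. For H3K4me3 the same shares were 83.0% and 85.2%, against 79.3% and 76.3%.

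Several limits bear on single genes. Other coding genes reach into the windows of 38 of the 68, among them Snx17 at Eif2b4, Gps2 at Eif5a and Foxred2 at Eif3d, so a peak there can belong to either. Over the 30 members with no such neighbour the H3K27ac ratio was 0.717. Reads from near-identical copies can be placed wrongly, which concerns Eef1a1, Eif3j1, Eif3j2 and Eif4a3l1. The loss at Eef1a2 rests on a control peak of 268 bp and ended when peaks under 500 bp were left out.

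The lists of other translation genes did not all look alike. Over all coding genes H3K27ac was at 56.3% in control and 59.3% in mutant, with a covered ratio of 0.863. Of 15 termination, recycling and accessory factors, such as Etf1 and Abce1, 13 had H3K27ac in each list, with a covered ratio of 0.776. Of 9 mitochondrial factors, such as Tufm and Gfm1, 9 had it in control and 8 in mutant, with a ratio of 0.494. Cytosolic aminoacyl-tRNA synthetases numbered 20, of which 19 and 20 were marked, with a ratio of 1.05, and 10 genes that signal to translation factors, such as Mtor and Rheb, had 10 and 9 marked with a ratio of 0.971. The 12 genes set as 2-cell markers had a ratio of 0.612. The 68 initiation and elongation genes, at 0.634, thus lay between these lists.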

How the data were processed

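Late 2-cell embryos were profiled in 16 libraries, grouped by title. The authors deposited 4 peak lists (chromosome, start and end), 1 per immunoprecipitated group. CASAVA, Trimmomatic, Bowtie2, SAMtools, Picard, MACS2 and deepTools, and the builds mm10 and GRCm38, are named per the submitters' processing notes, without versions or settings. Whether reads or calls of the 2 libraries were pooled, and the calling threshold, are not given in the sources used here. The narrowest peak (149 to 182 bp) and smallest gap (602 to 734 bp) differ between lists. Whether the calling limits differed is not given in the sources used here, and such limits can change peak number and width.

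Positions were read as BED intervals. Genes, promoters and start sites came from RefSeq tables of GRCm38.p6. Peaks overlapping the stretches within 2 kb of either gene end were counted in Python 3.11.15 with numpy 2.4.6 and pandas 2.3.3, and the bases covered were summed after merging the windows of a gene. The interval code was tested on simulated data. No test was made, since each group has 1 list. The genes, their roles and the other lists were chosen with earlier results of these data known. Genes were named where a mark was called in 1 condition only, for the 5 largest differences in each direction and mark, for the widest peak of each list, and for 10 central factors. Others were named after their values were seen. Alternatives changed the window, the overlap, the peak width, the joining of peaks, the size of the lists and the genes counted.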

Additional observations from a re-analysis of the deposited data

How the results depend on the processing

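No paired analysis was possible because only 1 peak list stands for each group, and leaving out a replicate could not be run for the same reason. Alternatives marked here as added were picked with the files in view. The H3K27ac covered ratio (0.634) stayed below 1 in every alternative run: 0.649 with windows of 1 kb, 0.682 with 5 kb, 0.581 with start windows only, 0.629 with peaks of 500 bp or more, 0.656 with common limits on gap and width, 0.621 with lists of equal size, 0.616 without regulators and 0.717 for the 30 genes with no other coding gene in the windows (added). The H3K4me3 ratio (0.974) was 0.954, 1.0, 0.941 and 0.972 with 1 kb, 5 kb, start windows and common limits, 0.976 without regulators and 0.985 without neighbours. Over all coding genes the ratios with windows of 2 kb were 0.863 (H3K27ac) and 1.04 (H3K4me3). They were not computed for the alternatives, so the members' distance from all genes was not compared there.

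The 7 control-only H3K27ac genes became 12 with windows of 1 kb and 13 with start windows. With 5 kb they were 5 of 65 marked genes (7.69%, against 14.2% of all genes marked in control), all among the 7. Start windows, which exist for 52 genes, gave 36 genes with H3K27ac and 35 with both marks in mutant (67.3%, against 41.6% of all genes), 15 with fewer H3K4me3 bases (28.8%, against 32.3%) and 26 with a narrower H3K27ac peak (78.8% of those marked in both, against 66.2%). H3K4me3 was in control only at 3 of 52 genes with start windows (5.77%, against 10.1% of all genes marked in control), 2 of 68 with 1 kb (2.94%, against 9.02%) and 0 of 68 with 5 kb (6.45% of all). Without regulators 50 of the 52 genes had H3K27ac in control, and 1 of the others was mutant-only, where 35.9% of all unmarked genes were. Over the 30 genes without neighbours, H3K27ac was at 28 in control (93.3%, against 46.3% of all coding genes without neighbours) and 25 in mutant (83.3%, against 52.5%). It was in control only at 4 (14.3% of those marked in control, against 25.6%) and in mutant only at 1 of the 2 not marked in control (33.6% of all such genes). H3K4me3 was at 30 (68.5% of all) and 29 (67.6%), and both marks at 28 (41.8%) and 25 (45.2%). Fewer bases in mutant were found at 23 genes for H3K27ac (79.3%, against 48.2%) and 10 for H3K4me3 (33.3%, against 40.3%), and a narrower peak at 19 (79.2%, against 65.0%) and 14 (48.3%, against 36.2%). Eef1a2 reversed with windows of 5 kb, where H3K27ac was higher by 422 bp in mutant. Start-site counts with 500 bp around the start, 1 start per gene or common limits (added) stayed within 1.5 times, with 19 to 20 starts in control only. The depth of the libraries is unknown and could not be weighed.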

Other observations

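Translation factor genes on the sex chromosomes lie outside the 68. Eif1ax, an X-linked gene for eIF1A, had 4001 bp of H3K27ac in control and 6435 bp in mutant, and 5157 and 0 bp of H3K4me3. Eif2s3x, the X-linked gene for the gamma subunit of eIF2, had 4001 and 1803 bp of H3K27ac and 5980 and 3902 bp of H3K4me3. Eif2s3y, its Y-linked counterpart, had no peak at its ends in any of the 4 lists.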
